A study of Medicago truncatula with 9 samples.

Results

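The miR169 entries mtr-miR169b, c, g, h, i and l-5p were followed in small RNA libraries of Medicago truncatula seedlings. They are 6 of the 905 miRNA entries in the count table and 6 of its 13 entries named mtr-miR169, and all 6 were among the 647 entries that passed the filter on low counts. The entries were chosen because they had changed with a treatment in these same libraries, so their differences between treatments describe the choice. Calls and adjusted p of these entries below come from the fit of all entries. They are given as a description and are not evidence independent of the choice. Seedlings of genotype R108 were compared in 3 conditions with 3 libraries each: alkali (Na2CO3 and NaHCO3, 5 mM), salt (NaCl and Na2SO4, 20 mM) and distilled water. All were harvested whole at 3 days of age after 72 h of treatment, so roots and shoots were not separated, and a change in the number of cells of one kind cannot be told apart from a change in the RNA per cell. Each condition was set up in 1 dish, and it was not stated whether the 3 biological replicates came from separate dishes, so the errors below measure the spread between these libraries, which may be partly technical.

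miR169 is a conserved plant miRNA family that guides the cleavage of mRNAs for NF-YA proteins. NF-YA is the subunit of the trimeric transcription factor NF-Y that makes the sequence-specific contact with the CCAAT box of promoters, beside the subunits NF-YB and NF-YC. In Arabidopsis, miR169 and its NF-YA targets have been linked to drought and nutrient responses. No mRNA was measured here, and NF-YA transcripts were not analysed.

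The 6 entries have only 3 mature sequences, which are printed because the entries grouped by these sequences when their levels were compared. The capitals mark the seed, bases 2 to 8 from the 5′ end.
mtr-miR169b, mtr-miR169g and mtr-miR169l-5p: cAGCCAAGgaugacuugccgg
mtr-miR169c: cAGCCAAGggugauuugccgg
mtr-miR169h and mtr-miR169i: uGAGCCAAagaugacuugccgg

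The sequence of mtr-miR169b, g and l-5p and that of mtr-miR169c are 21 nt long and share the seed AGCCAAG. Counted from the 5′ end, they differ by the substitutions A10G and C14U, written with the base of mtr-miR169b first, and 19 of 21 bases are identical. The sequence of mtr-miR169h and i is 22 nt long and begins 1 base further upstream. Aligned with that offset and numbered on mtr-miR169b, it differs from mtr-miR169b by C1G and G8A, with 19 of 21 aligned bases identical. Through both the offset and C1G, its seed reads GAGCCAA. Against mtr-miR169c it has 4 substitutions, C1G, G8A, G10A and U14C, and 17 of 21 aligned bases are identical. All 6 entries end in UUGCCGG. The study's lists of differentially expressed miRNAs held a sequence for 168 entries, where the count table has 905. Of these 168, 0 outside the 6 carried either seed. The lists were made by change with a treatment, so the search may miss the rest of the miR169 family. Entries without a listed sequence were not searched, so either seed may also occur among them. GC content was 61.9% in both 21-nt sequences and 54.5% in the 22-nt sequence.

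Library totals were 4135854 to 6503979 miRNA counts in alkali, 3918174 to 7191272 in salt and 3746957 to 4554748 in distilled water. Levels are given as CPM, counts per 1000000 after TMM scaling, which corrects library sizes for composition. The TMM factors ran between 0.768, in alkali library 1, and 1.35, in distilled water library 1, so these libraries stood at the ends of the scaling. The scaling matters for the alkali comparison. The median log2 ratio of alkali to distilled water over all 647 entries was -0.16 on the TMM scale and -0.61 on the scale of the deposited TPM values, which divide by the library total alone, a shift of -0.44. In salt against distilled water the same medians were -0.06 and -0.28, a shift of -0.22.

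mtr-miR169c was by far the most abundant of the 6. It ranked 131 of 647 by mean CPM, whereas mtr-miR169l-5p, g and b ranked 561, 562 and 589, and mtr-miR169h and i tied at rank 643. Within a single library, mtr-miR169c had 21.9 to 49.9 times the count of the next member. The rare entries were therefore counted in few reads, 5 to 34 per library for mtr-miR169b, g and l-5p and 2 to 19 for mtr-miR169h and i, while mtr-miR169c had 355 to 1247.

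mtr-miR169c was higher in both treatments than in distilled water. Its level was 154, 174 and 157 CPM in the alkali libraries, 131, 198 and 164 CPM in the salt libraries and 70.2, 105.6 and 105.2 CPM in the distilled water libraries. Every library of both treatments lay above every distilled water library, and the lowest value belonged to distilled water library 1. The mean was 162 ± 10.6 CPM in alkali, 164 ± 33.0 CPM in salt and 93.6 ± 20.3 CPM in distilled water (SD, n = 3 each). The log2 fold change in the model of all 9 libraries was 0.79 ± 0.191 (SE) for alkali and 0.81 ± 0.191 for salt, or 1.73-fold and 1.75-fold. Between alkali and salt the groups overlapped and the log2 fold change was -0.02 ± 0.188. On the deposited TPM scale the libraries of both treatments still lay above those of distilled water, but the log2 ratio of the means was 0.37 for alkali and 0.58 for salt. Without distilled water library 1 the log2 fold change was 0.69 for alkali and 0.70 for salt.

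mtr-miR169b, g and l-5p, which share one mature sequence, were highest in alkali. mtr-miR169b was at 5.16, 5.68 and 4.31 CPM in alkali, 4.22, 3.81 and 2.90 CPM in salt and 0.988, 3.21 and 2.46 CPM in distilled water. mtr-miR169g was at 5.36, 6.03 and 7.11 CPM in alkali, 5.11, 5.27 and 3.16 CPM in salt and 1.78, 4.82 and 2.87 CPM in distilled water. mtr-miR169l-5p was at 6.39, 6.03 and 6.85 CPM in alkali, 4.88, 5.27 and 3.29 CPM in salt and 1.38, 4.82 and 2.87 CPM in distilled water. For all 3 entries the alkali libraries lay above the distilled water libraries without overlap, distilled water library 1 was the lowest of the 9, and the salt libraries overlapped with distilled water.

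The means of mtr-miR169b were 5.05 ± 0.688 CPM in alkali, 3.64 ± 0.676 CPM in salt and 2.22 ± 1.13 CPM in distilled water (SD, n = 3 each). Those of mtr-miR169g were 6.17 ± 0.879, 4.51 ± 1.17 and 3.15 ± 1.54 CPM in the same order of conditions, and those of mtr-miR169l-5p were 6.43 ± 0.411, 4.48 ± 1.05 and 3.02 ± 1.72 CPM. The order alkali, salt, distilled water was thus the same in the 3 entries, which have the same sequence and are not independent measurements. In alkali against distilled water the log2 fold change was 1.21 ± 0.406 for mtr-miR169b, 1.10 ± 0.389 for mtr-miR169l-5p and 0.98 ± 0.381 for mtr-miR169g (SE). In salt against distilled water it was 0.70 ± 0.424, 0.55 ± 0.406 and 0.49 ± 0.397 for the same entries, with overlapping groups. Without distilled water library 1 the alkali values were 0.92 for mtr-miR169b, 0.82 for mtr-miR169l-5p and 0.76 for mtr-miR169g, and neither mtr-miR169b nor mtr-miR169l-5p was called. On the deposited TPM scale the log2 ratios of the means in alkali were 0.79, 0.70 and 0.58, and only mtr-miR169b of the 3 still had groups without overlap.

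mtr-miR169h and mtr-miR169i were lower in salt than in either other condition. Their counts were the same in every library: 11, 19 and 11 in alkali, 2, 4 and 4 in salt and 13, 11 and 10 in distilled water. The level of each was 2.27, 3.37 and 2.79 CPM in alkali, 0.444, 1.17 and 0.527 CPM in salt and 2.57, 2.52 and 2.05 CPM in distilled water. Every salt library lay below every library of the other conditions, also on the deposited TPM scale and when divided by clean reads, while alkali and distilled water overlapped.

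The mean level of mtr-miR169h was 2.81 ± 0.551 CPM in alkali, 0.714 ± 0.399 CPM in salt and 2.38 ± 0.290 CPM in distilled water (SD, n = 3 each). Pooled over the libraries of a condition there were 41 counts in alkali, 10 in salt and 34 in distilled water, with exact 95% Poisson intervals of 2.04 to 3.86, 0.309 to 1.19 and 1.65 to 3.32 CPM, which cover counting error only. The log2 fold change of salt against distilled water was -1.82 ± 0.532 (SE), that is 0.283 of the distilled water level, and that of alkali against salt was 2.07 ± 0.518, or 4.20-fold. For alkali against distilled water it was 0.25 ± 0.416, and the sign turned on the deposited TPM scale, where the log2 ratio of the means was -0.21.

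**Figure D1:**
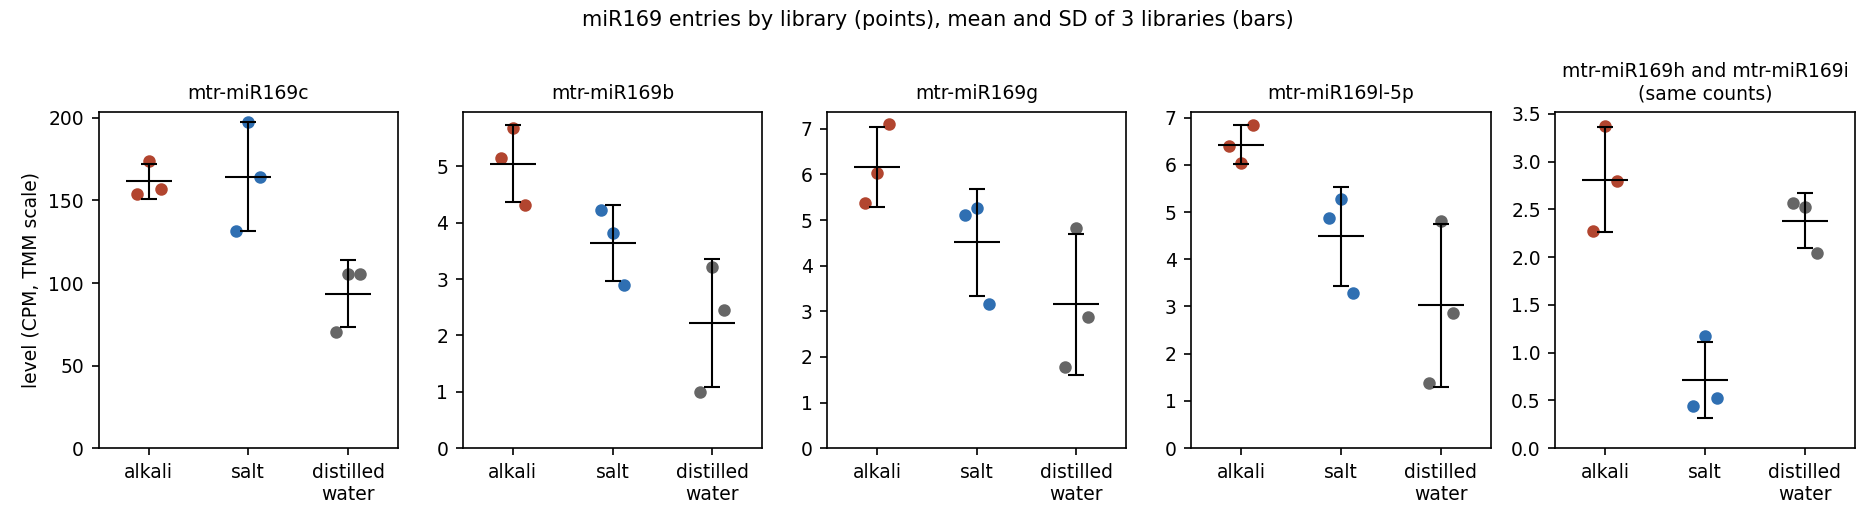
Level in CPM on the TMM scale of mtr-miR169c, b, g, l-5p and of h and i together, in alkali, salt and distilled water; points are libraries, and bars show the mean and SD of 3 libraries, with a separate axis that starts at 0 in each panel. mtr-miR169c stands at 70.2 to 105.6 CPM in distilled water, below all libraries of both treatments, and mtr-miR169h and i stand at 0.444 to 1.17 CPM in salt, below all other libraries.

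An entry was called when its adjusted p over all 647 entries was under 0.05 and its fold change over 1.5. In alkali against distilled water, 3 of the 6 were called higher, mtr-miR169b, c and l-5p, and 0 lower, where 8.66% of all 647 entries were called higher. Groups did not overlap for 4 of the 6, with alkali above, where 110 of 647 entries (17%) had alkali above without overlap. These contrasts were used to choose the entries, so nothing is read from the difference between the shares. The entries on either side of the threshold had the same sequence: mtr-miR169l-5p was just inside with an edgeR adjusted p of 0.0491, and mtr-miR169g was just outside with 0.0666. mtr-miR169g was called with DESeq2 size factors, with DESeq2 and without the filter on low counts.

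In salt against distilled water, 1 of the 6 was called higher, mtr-miR169c, and 2 were called lower, mtr-miR169h and i. Of all entries, 4.02% were called higher and 4.17% lower. The groups of mtr-miR169c did not overlap, with salt above, as for 11.1% of all entries, and those of mtr-miR169h and i did not overlap, with salt below, as for 84 of 647 (13%). In alkali against salt, mtr-miR169h and i were called higher and the other 4 were not, against 3.40% of all entries. Alkali lay above salt without overlap for 5 of the 6, against 14.8% of all entries; on the deposited TPM scale this held only for mtr-miR169h and i. The comparisons share libraries and are not independent of one another.

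The median log2 fold change of the 6 entries was 0.88 in alkali and 0.52 in salt, each against distilled water, and 0.53 in alkali against salt. Over all 647 entries it was -0.17, -0.06 and -0.06 for the same comparisons. Set against the median of all entries in alkali, the log2 fold changes were 1.38 for mtr-miR169b, 1.27 for mtr-miR169l-5p, 1.14 for mtr-miR169g, 0.96 for mtr-miR169c and 0.42 for mtr-miR169h and i. Since the scaling moves all entries alike, these differences depend on it less than the fold changes do. The scales were compared in alkali by the log2 ratio of the means minus its median over all entries. By this measure mtr-miR169c was at 0.95 on the TMM scale and 0.98 on the deposited TPM scale. For mtr-miR169b the values were 1.35 and 1.40.

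**Figure D2:**
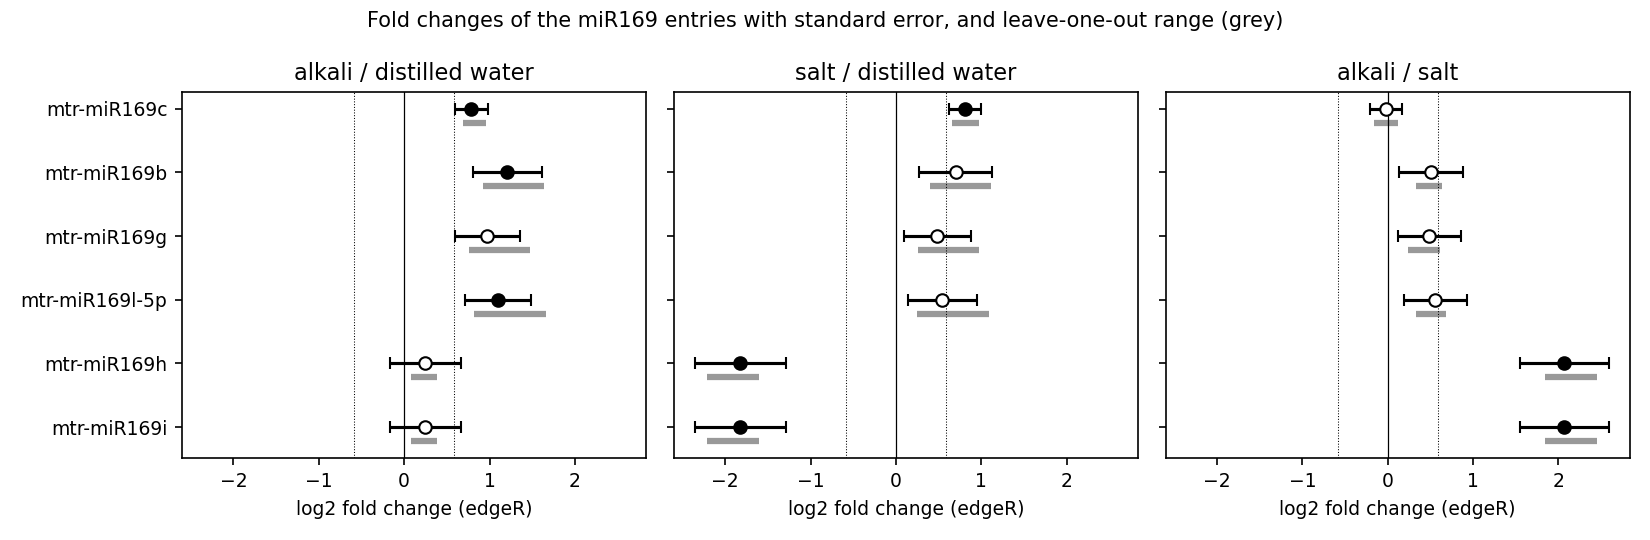
Log2 fold changes of the 6 entries in alkali against distilled water, salt against distilled water and alkali against salt; black bars are standard errors, filled points are called, dotted lines mark a 1.5-fold change and grey bars span the values with each library left out in turn. mtr-miR169c lies near 0.8 in both treatments, and mtr-miR169h and i lie at -1.82 in salt.

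The calls differed in how much they rested on single libraries. mtr-miR169c in alkali was called with each of the 9 libraries left out in turn, with log2 fold changes of 0.69 to 0.96. In salt it was called in 8 of 9 such fits, and not without salt library 2. mtr-miR169b in alkali was called in 6 of 9, and not without distilled water library 1 or alkali library 1 or 2. mtr-miR169l-5p in alkali was called in 3 of 9, those without distilled water library 2 or 3 or alkali library 3. mtr-miR169h and i in salt were called in 3 of 9, those without distilled water library 3 or alkali library 1 or 3, although the log2 fold change stayed between -2.21 and -1.60. In alkali against salt they were called in 6 of 9, and not without salt library 1 or 3 or alkali library 2.

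The makeup of the summed counts of the 6 entries does not depend on the scaling of libraries. mtr-miR169c took 87.4 ± 0.522% of these counts in alkali, 92.0 ± 2.18% in salt and 87.8 ± 2.07% in distilled water (SD, n = 3 each). The sequence of mtr-miR169b, g and l-5p took 9.56 ± 0.576% in alkali, 7.25 ± 2.22% in salt and 7.53 ± 2.64% in distilled water, with overlapping ranges. The sequence of mtr-miR169h and i took 3.02 ± 0.412% in alkali, 0.768 ± 0.283% in salt and 4.68 ± 1.58% in distilled water. For mtr-miR169h and i the salt libraries, at 0.603 to 1.09%, lay below the alkali libraries, at 2.59 to 3.40%, and these lay below the distilled water libraries, at 3.48 to 6.47%. A share also depends on mtr-miR169c, which took most of the counts, so a lower share is not by itself a lower level. The level of mtr-miR169h was 2.81 CPM in alkali and 2.38 CPM in distilled water, with overlapping groups. The shares above count every entry, and entries of one sequence may hold the same reads. With each sequence counted once, by the mean of its entries, mtr-miR169b, g and l-5p took 3.46% in alkali, 2.56% in salt and 2.72% in distilled water, and mtr-miR169h and i took 1.64%, 0.405% and 2.52% in the same order of conditions.

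**Figure D3:**
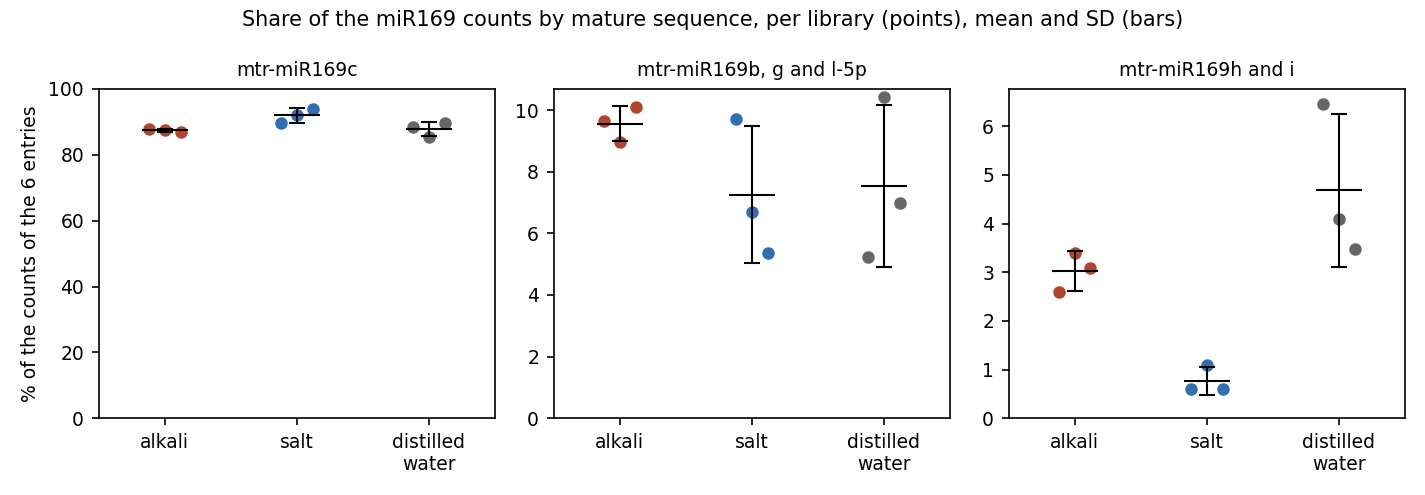
Share in percent of the summed counts of the 6 entries by mature sequence, for mtr-miR169c, for mtr-miR169b, g and l-5p and for mtr-miR169h and i; points are libraries and bars show the mean and SD of 3 libraries, with each axis starting at 0. The share of mtr-miR169h and i is 0.603 to 1.09% in salt, below all alkali and distilled water libraries.

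Entries with the same mature sequence did not all have the same counts. mtr-miR169h and i were equal in all 9 libraries, with 85 counts each. mtr-miR169g and l-5p were equal in 4 of 9 libraries and differed by at most 5 counts elsewhere, with totals of 197 and 199. mtr-miR169b was below both in all 9 libraries, by 1 to 11 counts against mtr-miR169g and by 2 to 10 against mtr-miR169l-5p, with a total of 159. How reads that match several entries were assigned was not given in the sources used here, so the levels of entries with the same sequence are uncertain one by one.

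Across the 9 libraries, Pearson's r of log2 CPM was 0.98 between mtr-miR169g and l-5p, 0.96 between mtr-miR169b and l-5p and 0.92 between mtr-miR169b and g. The profile of mtr-miR169c had an r of 0.80 with the mean profile of mtr-miR169b, g and l-5p and of -0.25 with mtr-miR169h and i. Between mtr-miR169b, g and l-5p and mtr-miR169h and i it was 0.05. These are descriptions over libraries that share 3 conditions and one scaling.

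The other 7 mtr-miR169 entries were too rare to be tested, and 0 of them passed the filter. Their total counts over the 9 libraries were 20 for mtr-miR169a, 17 for mtr-miR169d-5p, 22 for mtr-miR169e-5p, 6 each for mtr-miR169d-3p and e-3p, 3 for mtr-miR169k and 0 for mtr-miR169j. Most counts of the 3 more frequent ones came from alkali libraries. mtr-miR169a had 14 counts in alkali, 2 in salt and 4 in distilled water. mtr-miR169e-5p had 16 in alkali, 1 in salt and 5 in distilled water, and mtr-miR169d-5p had 13, 1 and 3 in the same order of conditions.

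The choice took entries that had changed with a treatment, and these 7 are the mtr-miR169 entries it left out. The test of their summed level is therefore not independent of the choice. The sum was 25, 17 and 8 counts in the alkali libraries, 1, 3 and 2 in the salt libraries and 4, 7 and 7 in the distilled water libraries. On the CPM scale it was 3.40 ± 1.60 in alkali, 0.455 ± 0.368 in salt and 1.28 ± 0.430 in distilled water (SD, n = 3 each). Every alkali library lay above every library of the other conditions. mtr-miR169d-3p and e-3p had the same counts in all 9 libraries, and mtr-miR169d-5p and e-5p had 9 each in alkali library 1, so the sum may count some reads more than once. The difference was 2.12 CPM for alkali minus distilled water, with an exact two-sided permutation p of 0.1, 2.95 CPM for alkali minus salt, also with an exact p of 0.1, and -0.82 CPM for salt minus distilled water, with an exact p of 0.2. With 3 libraries against 3 the smallest p this test can give is 0.1, so it could not pass a threshold of 0.05, and the values adjusted over the 3 comparisons were 0.15, 0.15 and 0.2 by the same exact test. Without alkali library 1 the difference for alkali minus distilled water was 1.25 CPM, on the deposited TPM scale it was 1.38 TPM, and with the d and e entries counted once per arm it was 1.39 CPM. mtr-miR2620, which the study's family list places with miR169, had 4 counts in alkali, 10 in salt and 2 in distilled water, and all 10 salt counts were in salt library 3.

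Entries outside the 6 were ranked by the correlation of their log2 CPM with each sequence's profile over the 9 libraries. The 5 most like mtr-miR169c were mtr-miR5561-5p, mtr-miR156h-3p, mtr-miR5558-3p, mtr-miR166e-3p and mtr-miR2086-5p, with r of 0.90 to 0.94. mtr-miR5561-5p was at 34.2 ± 0.725 CPM in alkali, 36.0 ± 1.89 CPM in salt and 23.9 ± 3.36 CPM in distilled water. Like mtr-miR169c it was at similar levels in both treatments. The 5 most like mtr-miR169b, g and l-5p were mtr-miR168c-3p, mtr-miR156b-3p and 3 predicted entries, with r of 0.87 to 0.89. mtr-miR156b-3p, from the opposite arm to miR156, which targets SPL transcription factor mRNAs, was at 421 ± 44.5 CPM in alkali, 329 ± 50.7 CPM in salt and 176 ± 60.6 CPM in distilled water, the same order as for mtr-miR169b.

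The entries most like mtr-miR169h and i were mtr-miR398c and mtr-miR398b, both with r of 0.92, then mtr-miR408-3p with 0.87, mtr-miR156g-5p with 0.80 and 1 predicted entry with 0.78. miR398 is known in Arabidopsis for targeting copper/zinc superoxide dismutase mRNAs, and miR408 for targeting mRNAs of copper-binding proteins. mtr-miR398c was at 43.1 ± 7.62 CPM in alkali, 9.74 ± 2.35 CPM in salt and 42.1 ± 7.70 CPM in distilled water. mtr-miR398b had the same means in salt and distilled water and 43.3 CPM in alkali. Both may therefore hold the same reads and may not be separate matches. mtr-miR408-3p was at 9.30 ± 2.37 CPM in alkali, 2.52 ± 0.614 CPM in salt and 13.3 ± 4.28 CPM in distilled water. As with mtr-miR169h and i, the salt means of these entries were the lowest of the 3 conditions. The r values have no test, because they were picked as the highest among all entries.

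**Figure D4:**
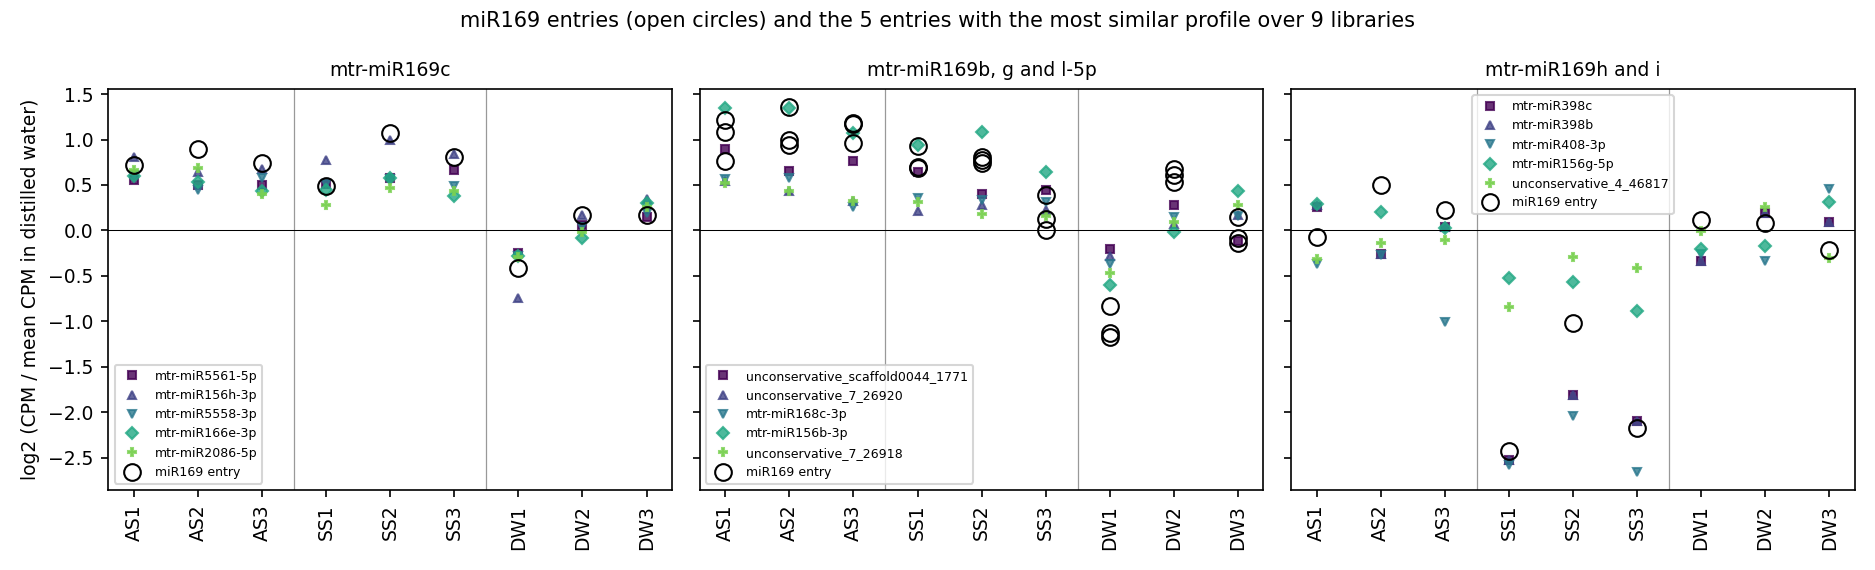
Log2 of CPM relative to the mean CPM in distilled water for the miR169 entries (open circles) and, in each panel, the 5 entries with the highest Pearson correlation over the 9 libraries; AS, SS and DW are the alkali, salt and distilled water libraries. The low salt values of mtr-miR169h and i are shared by mtr-miR408-3p and by mtr-miR398b and mtr-miR398c, which may hold the same reads.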

How the data were processed

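Small RNA was sequenced from 9 libraries, 3 per condition, grouped by their deposited labels. The authors deposited whole-number counts for 905 entries, 684 known and 221 predicted, with entry lengths, and TPM values. The methods give clean reads as the divisor of TPM, but the deposited TPM values equal the counts over the sum of miRNA counts in the library for all 905 entries, and that divisor is meant here by the TPM scale. Their notes name Bowtie and DESeq 1.10.1. The counts were used, and 0 columns were unmatched. Mature sequences came from the study's lists of differentially expressed miRNAs.

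Counts were fitted in R 4.3.3 with edgeR 4.0.16: filterByExpr with a minimum count of 10, TMM, all 9 libraries by condition, the robust quasi-likelihood test and Benjamini-Hochberg adjustment over 647 entries. A call needs an adjusted p under 0.05 and a fold over 1.5. Standard errors came from the log2 fold change and its F statistic. CPM is per 1000000 on the TMM scale, and log2 CPM for correlations has a prior count of 2. The fit was tested on simulated data. Alternatives used DESeq2 1.42.0, limma 3.58.1 (voom), other scalings and left-out libraries. Leaving out both libraries with extreme TMM factors, the comparison of scales, and counting entries of one sequence or of the d and e pair once, were chosen after seeing the data.

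The entries and lists were chosen with earlier results of these data known. Named entries are the 6, the rest of the family, and the 5 most correlated entries per mature sequence. Instruments are named differently in parts of the paper, and no batch or date is given. Whether replicate numbers pair the libraries is not known. Deviations of same-numbered libraries correlated between -0.59 and 0.40, and those of differently numbered libraries between -0.44 and 0.50. The libraries were fitted unpaired, with a replicate block as an alternative.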

Additional observations from a re-analysis of the deposited data

How the results depend on the processing

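A tally was made that leaves out the fits with identical profiles tested once and without the fold threshold. Under the other alternatives, 298 log2 fold changes of the 6 entries had an adjusted p. Of these, 246 kept their direction and their side of the threshold, 43 lost a call, 4 gained one and 5 changed sign. All 5 were mtr-miR169c in alkali against salt, a value near 0 that was never called. It was 0.0242 with DESeq2 size factors and with DESeq2, and 0.0128 without alkali library 1 and distilled water library 1. With 1 library left out it was -0.1657 to 0.1251. With identical profiles tested once, outside the tally, its sign also changed, to 0.0033. The 3 calls in alkali fell to 1 with clean-read library sizes, with the replicate block and without the 2 libraries with extreme TMM factors, mtr-miR169c in each case, became 4 with DESeq2 size factors, DESeq2 or no filter, where mtr-miR169g was added, and ranged over 1 to 4 with 1 library left out. The 3 calls in salt fell to 0 with clean-read library sizes, where 4 of all entries were called higher and 3 lower against 26 and 27, and to 1 with DESeq2, limma-voom, only the 2 conditions compared, the replicate block or those 2 libraries left out, with 0 to 3 when leaving out 1. The 2 calls in alkali against salt became 0 with only the 2 conditions compared, 1 with identical profiles tested once, and 0 to 2 when leaving out 1 library. In the fits of 2 conditions that include salt, mtr-miR169h and i were removed by the filter and not tested, with DESeq2 in salt they had no adjusted p, and identical profiles tested once count the pair as 1. With identical profiles counted once, the share of mtr-miR169c was 88.8% in alkali and 89.9% in distilled water, and that of mtr-miR169h and i was 1.54% in alkali, 0.386% in salt and 2.40% in distilled water. With each sequence counted once, chosen after seeing the data, mtr-miR169c took 94.9% in alkali, 97.0% in salt and 94.8% in distilled water, mtr-miR169b, g and l-5p 3.46%, 2.56% and 2.72%, and mtr-miR169h and i 1.64%, 0.405% and 2.52%. The cause of the other shifts was not tested. On the TPM scale the log2 ratio of alkali to distilled water was 0.37 for mtr-miR169c and -0.21 for mtr-miR169h and i. DESeq2 size factors moved the median log2 fold change of all entries in alkali to -0.06, against -0.17, and their calls to 82 higher and 47 lower, against 56 and 55; clean-read sizes gave 35 and 76. Whether libraries with the same replicate number belong together is not known. With the replicate block, only mtr-miR169c stayed called in alkali and in salt, each against distilled water. Depth limits mtr-miR169h and i most, with 2 to 4 counts per salt library.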
